A study of Ovis aries with 27 samples.

Results

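The adenine nucleotide carriers SLC25A4, SLC25A5 and SLC25A6 were followed in the heart septum of fetal sheep. Probes were taken by gene name, RefSeq accession or description in the scanner files, among the spots that are not controls. This gave 3 genes with 1 probe each, out of 744 named genes with a tested probe and 15008 probes on the array. All 3 were well above background on every array (81 of 81 values) and passed the filter on dim probes with 12778 probes in all. The rule goes by name, but the family was chosen by someone who knew the measured age and cortisol differences of these probes. Those differences are therefore counted as used in the choice. The values and adjusted p values below describe where the 3 probes stand in a fit of the whole array and are not independent support for a pattern.

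The septum, the muscular wall between the ventricles, was taken from 27 fetuses and each was measured on 1 array with a single dye. The ewes were infused without interruption, with 1 mg/kg/d of cortisol or with vehicle alone, and the question was how the fetal heart responds at 2 ages. The group called control at 130 d held 6 fetuses of vehicle ewes and the group called cortisol at 130 d held 6 of cortisol ewes, both collected from 129 to 131 d of gestation. The group called control at 140 d held 8 fetuses and the group called cortisol at 140 d held 7, both collected from 139 to 144 d. The younger cohort was infused for about 10 d from about 120 d, although the growth label gives a start near 115 d for all ewes, and the older cohort for about 25 d from about 115 d. Where 140 d is set against 130 d, the age of the fetus, its cohort and how long its mother was infused cannot be told apart. The 8 fetuses called control at 140 d had 7 mothers, and which of them were twins is not labelled.

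Adenine nucleotide carriers, also called adenine nucleotide translocators, sit in the inner mitochondrial membrane. They exchange ADP from the cytosol for ATP made in the matrix, which is how the heart's contractile machinery receives most of its ATP. SLC25A4 (ANT1) is the isoform typical of heart and skeletal muscle. SLC25A5 (ANT2) is best known from dividing and poorly differentiated cells, and SLC25A6 (ANT3) is expressed in many tissues.

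The probe sequences are shown because every value below rests on a single oligonucleotide per isoform, and the isoforms are close relatives. Each probe is written 5′ to 3′. Capitals mark the stretch over which the probes for SLC25A4 and SLC25A5 align best without gaps.

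SLC25A4: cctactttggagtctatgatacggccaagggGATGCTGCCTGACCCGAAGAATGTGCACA

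SLC25A5: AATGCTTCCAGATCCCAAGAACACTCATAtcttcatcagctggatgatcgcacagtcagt

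SLC25A6: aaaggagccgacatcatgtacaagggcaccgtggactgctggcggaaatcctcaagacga

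The SLC25A4 probe (A_70_P011181) was designed on RefSeq transcript NM_001127278 and starts at base 568, and the SLC25A5 probe (A_70_P032816) starts at base 599 of NM_001127279. The SLC25A6 probe (A_70_P033021) was designed on a single expressed sequence tag that the files name SLC25A6. The files list all 3 as unmapped and name no genome build, so no coordinates are given. Each probe is 60 bases long, and GC content was 53.3% for SLC25A4, 45% for SLC25A5 and 55% for SLC25A6. Over the capitals 19 of 29 bases were identical (65.5%), against 34.4% at the next best offset of those probes. The SLC25A6 probe matched SLC25A4 at 23 of 55 bases and SLC25A5 at 13 of 26 at their best offsets. None of the 3 shared a run of 14 bases with another of them. Among the 15007 other probes, 1 shared such a run with SLC25A4, and 0 shared one with SLC25A5 or SLC25A6. These matches set probes against probes and not against transcripts, so they do not show whether 1 isoform's transcript binds another isoform's probe. Such hybridisation was not tested.

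Signal was strong for SLC25A4, whose spot had a processed intensity between 182161 and 511391 over the 27 arrays. Its mean signal lay between 30.5% and 81.0% of the scanner's saturation value, and 0 of the 3 genes' spots were saturated. Intensity was 19172 to 58712 for SLC25A6 and 1263 to 4668 for SLC25A5. Levels of different probes cannot be ranked against each other, so the isoforms are compared below only by how each one changed. Values are given as log2 of intensity relative to the 75th percentile of the same array, called the scaled level.

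The arrays at 140 d were dimmer than those at 130 d. At 140 d the 75th percentile of intensity was 838 ± 59.3 (SD, n = 8) for control arrays, and for cortisol arrays 884 ± 149 (SD, n = 7). At 130 d it was 1160 ± 101 (SD, n = 6) for control arrays, and for cortisol arrays 1093 ± 77.0 (SD, n = 6). The array of cortisol 140 d replicate 4 stood apart, with a 75th percentile of 602 and a median correlation with its own group of 0.957, against 0.971 to 0.987 for the other 26 arrays. The tissue label could be checked on only 2 of 17 listed cardiomyocyte markers, MB (myoglobin) and TPM1 (tropomyosin), both well above background on all 27 arrays. Of markers of other cells, 3 of 9 fibroblast, 5 of 9 immune, 2 of 6 red blood cell, 5 of 6 adipocyte, 2 of 6 endothelial, 1 of 4 smooth muscle and 1 of 7 skeletal muscle genes were measured.

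SLC25A4, the muscle isoform, was higher at 140 d than at 130 d in both arms, and no difference with cortisol passed the threshold at either age. In control fetuses at 130 d its scaled level ran from 7.5 through a median of 7.90 to 8.53, with a mean of 7.93 ± 0.41 (SD, n = 6). With cortisol at 130 d it ran from 7.64 through 7.91 to 8.11, with a mean of 7.90 ± 0.16 (SD, n = 6). The controls at 130 d were thus the more spread of the younger groups, and control replicate 2 was their highest. At 140 d the control level ran from 8.58 through 8.72 to 9.14 (mean 8.80 ± 0.18, SD, n = 8). With cortisol at 140 d it ran from 8.24 through 8.75 to 9.0 (mean 8.73 ± 0.25, SD, n = 7), and the lowest of these was replicate 4. In each arm the lowest fetus at 140 d lay above the highest at 130 d, and within each age the arms overlapped.

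SLC25A6 followed the same order of groups. Its scaled level in controls at 130 d ran from 4.32 through a median of 4.67 to 5.08 (mean 4.70 ± 0.33, SD, n = 6). With cortisol at 130 d it ran from 4.50 through 4.59 to 4.96 (mean 4.65 ± 0.17, SD, n = 6). These groups overlapped, and again the controls spread further. Controls at 140 d ran from 5.38 through 5.60 to 6.11 (mean 5.62 ± 0.23, SD, n = 8). The cortisol group at 140 d ran from 4.99 through 5.49 to 5.89 (mean 5.50 ± 0.28, SD, n = 7). Neither arm had any overlap between the ages.

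SLC25A5, the isoform of dividing cells, showed no such step. Controls ran from 1.32 through a median of 1.66 to 1.90 at 130 d (mean 1.65 ± 0.23, SD, n = 6), and from 1.48 through 1.59 to 2.15 at 140 d (mean 1.70 ± 0.26, SD, n = 8). The cortisol groups ran from 1.35 through 1.59 to 2.06 at 130 d (mean 1.66 ± 0.25, SD, n = 6), and from 1.07 through 1.43 to 1.94 at 140 d (mean 1.49 ± 0.34, SD, n = 7). All 4 groups overlapped, and the group means ordered from highest to lowest (control 140 d, cortisol 130 d, control 130 d, cortisol 140 d) differed by less than the SD within the groups.

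**Figure D1:**
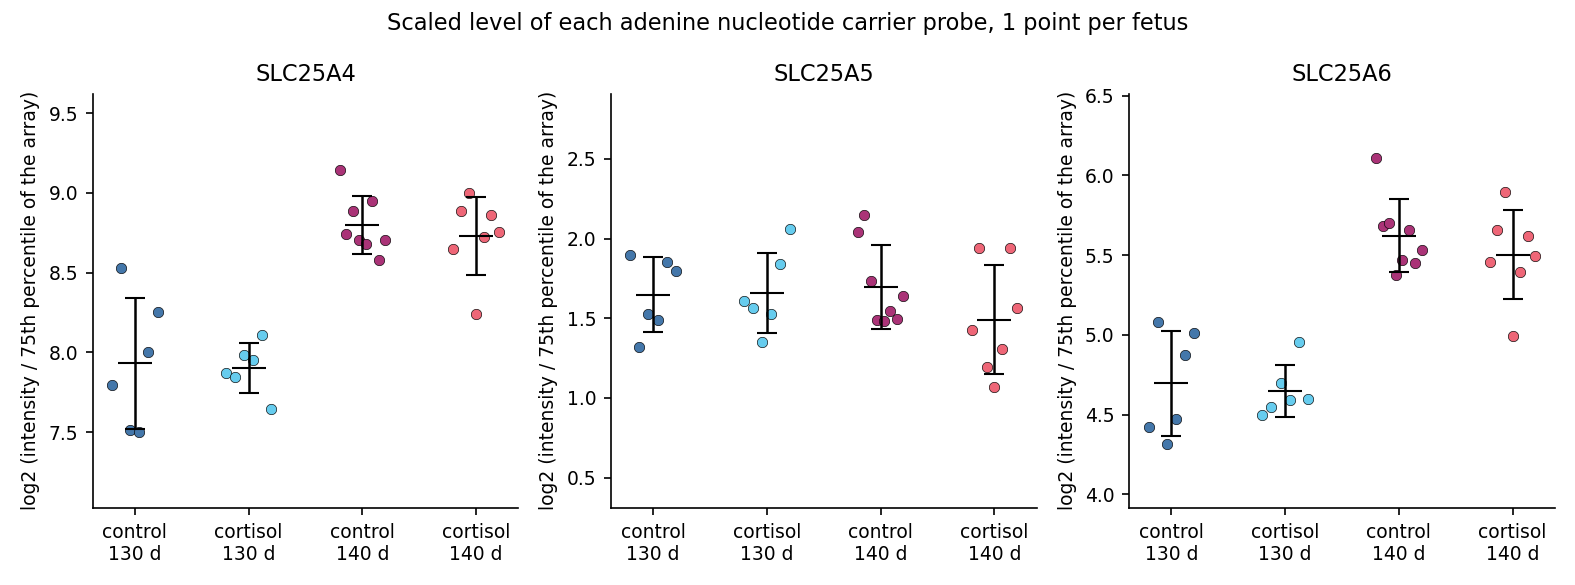
Scaled level of each carrier probe, as log2 of intensity over the 75th percentile of the array, by group. Points are single fetuses and bars are the group mean ± SD. Every fetus at 140 d lies above every fetus at 130 d of the same arm for SLC25A4 and SLC25A6, and all groups overlap for SLC25A5.

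In the control fetuses 2 of the 3 carriers rose from 130 d to 140 d and 0 fell, against 19.1% of the 12778 probes called at all, 9.77% called higher and 9.35% called lower. SLC25A4 was 1.82-fold higher (log2 difference 0.86 ± 0.14 SE, limma adjusted p = 0.000305), with 8 of 8 older fetuses above the younger mean. SLC25A6 was 1.90-fold higher (0.93 ± 0.14 SE, limma adjusted p = 0.000171), also in 8 of 8. By p value these probes ranked 72 and 33 of all those tested. The SLC25A5 difference was 0.05 ± 0.15 SE (95% confidence interval -0.26 to 0.36, limma adjusted p = 0.848), with 3 of 8 older fetuses above the younger mean. That interval lies wholly below those of SLC25A4 (0.58 to 1.15) and SLC25A6 (0.64 to 1.21). Groups that did not overlap, with 140 d higher, were seen for 2 of the 3 carriers and for 3.52% of all probes.

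With cortisol the age difference had nearly the same size, and again 2 of the 3 carriers rose and 0 fell, against 13.5% of all probes called, 4.94% called higher and 8.52% called lower. SLC25A4 was 1.78-fold higher at 140 d (0.83 ± 0.14 SE, 95% confidence interval 0.53 to 1.13, limma adjusted p = 0.000747) and SLC25A6 1.81-fold higher (0.85 ± 0.14 SE, interval 0.56 to 1.15, limma adjusted p = 0.000531). Both were higher in 7 of 7 older fetuses than the younger mean. Without replicate 4 of cortisol 140 d, the array that stood apart, the differences were 0.91 and 0.94. SLC25A5 was -0.17 ± 0.15 SE (interval -0.48 to 0.15, limma adjusted p = 0.516), with 2 of 7 above the younger mean. Groups without overlap, 140 d higher, were seen for 2 of the 3 carriers and for 1.54% of all probes.

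These age differences are relative to the bulk of the probes on each array, and their size depends on that choice. Without any scaling between arrays the median of all probes was 0.47 lower at 140 d in controls and 0.37 lower with cortisol (medians -0.47 and -0.37). SLC25A4 was then 0.40 in controls and 0.51 with cortisol, and SLC25A6 0.46 and 0.53, with limma adjusted p values from 0.0216 to 0.0493, where 0.634% and 1.06% of all probes were called higher. When each array was scaled to its spike-in control spots, the median of all probes was -0.73 in controls and -0.90 with cortisol. SLC25A4 was then 0.14 and -0.03 and SLC25A6 0.20 and -0.00, and none of these passed (limma adjusted p from 0.393 to 0.984). On the same scale SLC25A5 fell by 0.67 in controls and by 1.03 with cortisol (limma adjusted p = 0.0160 and 0.000732). Of all probes 76.5% and 87.5% were called lower on that scale. The median, spike-in and unscaled settings shift every probe of an array by the same constant, so the gaps between the carriers are fixed there. Quantile normalization can move them, and it narrowed the gap of SLC25A4 over SLC25A5 in controls from 0.81 to 0.55, which no longer passed (exact permutation adjusted p = 0.0529).

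**Figure D2:**
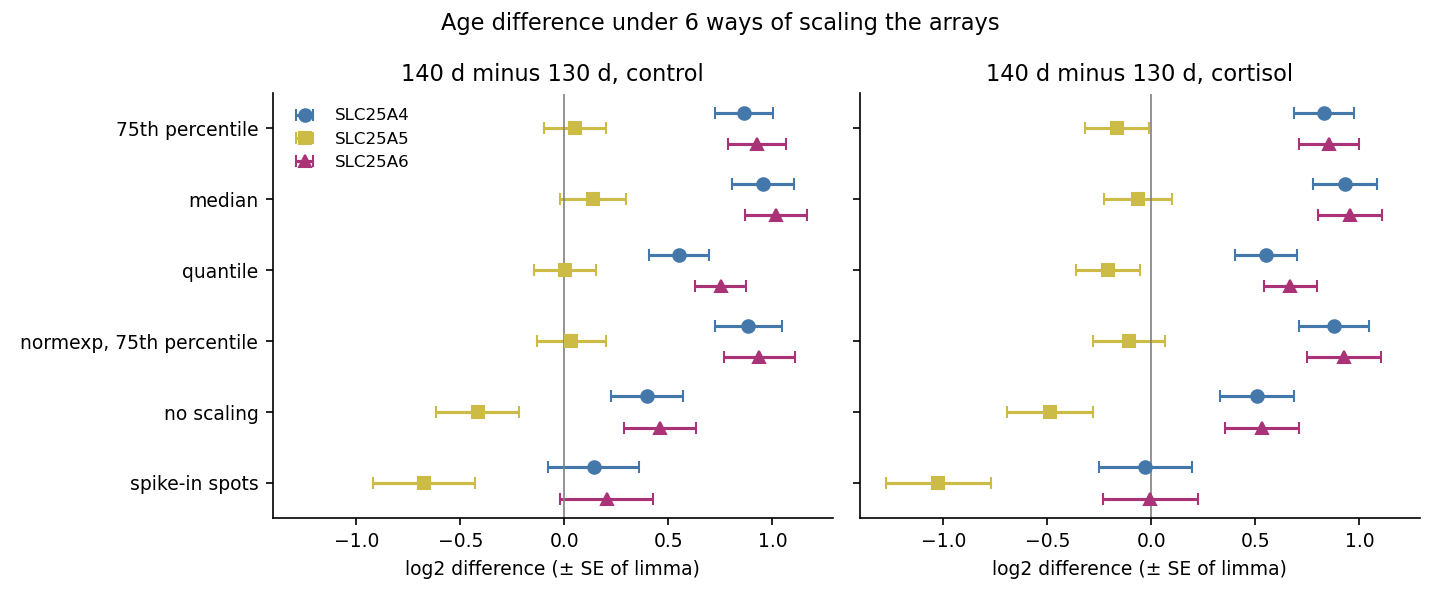
Log2 difference of 140 d minus 130 d (± SE from limma) for each carrier under 6 ways of scaling the arrays, in controls (left) and with cortisol (right). All 3 move left together without scaling and with spike-in scaling, where SLC25A4 and SLC25A6 are near 0 with cortisol, and SLC25A4 moves towards SLC25A5 with quantile normalization. The cortisol values with spike-in scaling include 140 d replicate 4, which lay far below its group on that scale.

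In bulk tissue, fewer cells of a type and less RNA per cell cannot be told apart. Markers of several cell types moved with age beside the carriers. The summed linear level of MB and TPM1 was 447 to 552 in controls at 130 d and 580 to 872 at 140 d, and 275 to 554 and 452 to 810 with cortisol. MB (0.48 ± 0.15 SE) and TPM1 (0.67 ± 0.09 SE) both rose in controls, and 1 of the 2 rose with cortisol. In controls the markers that fell were 1 of 3 for fibroblasts, 3 of 5 for immune cells and 2 of 2 for red blood cells, and 3 of 5 adipocyte markers rose, where 9.35% of all probes fell and 9.77% rose. With cortisol 2 of 5 adipocyte markers rose and 0 of the fibroblast, immune and red blood cell markers passed. In that arm 4.94% of all probes rose and 8.52% fell. The summed level of the red blood cell markers was 16.8 to 56.4 in controls at 130 d and 3.02 to 28.0 at 140 d, that of the immune markers 0.939 to 2.82 and 0.597 to 0.939, that of the fibroblast markers 142 to 222 and 80.2 to 182, and that of the adipocyte markers 2.80 to 5.56 and 4.56 to 8.43. With cortisol the ranges at 130 d and 140 d were 19.0 to 43.6 and 1.58 to 33.6, 0.759 to 1.40 and 0.709 to 2.35, 184 to 234 and 110 to 336, and 2.45 to 3.93 and 4.36 to 7.71. The endothelial, smooth muscle and skeletal muscle markers had 0 calls. With quantile normalization 0 of 2 cardiomyocyte markers rose in either arm. In controls 2 of 3 fibroblast markers fell there, and 2397 of 12778 probes were called in controls and 1566 with cortisol. Of these calls 56.2% and 46.6% were higher. With normexp background correction 1 of 2 cardiomyocyte markers rose in each arm and 0 of 3 fibroblast markers fell. Of all probes 4.19% and 2.65% were called there, and 60.8% and 52.2% of these calls were higher. With a median shift 0 of 3 fibroblast markers fell, with 2831 and 1833 probes called, of which 70.6% and 63.7% were higher. With spike-in scaling 0 of 2 cardiomyocyte markers rose in either arm and 1 fell with cortisol, and all 3 fibroblast, 5 immune, 2 red blood cell and 2 endothelial markers fell in both arms, as did 76.5% of all probes in controls and 87.5% with cortisol. Of the adipocyte markers 0 rose there and 1 fell with cortisol, as did the skeletal muscle marker. The part of these cells in the carrier differences was not tested.

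Slides 2, 3 and 4 each held all 4 groups. Slide 1 held only 1 cortisol 140 d array, and slide 5 only 3 control and 1 cortisol 140 d arrays. Age is thus partly bound to slide in the main fit, which has no slide term. With slide as a block the age difference in controls was 0.90 for SLC25A4 and 0.98 for SLC25A6, and with cortisol 0.86 and 0.90. Within slides 2, 3 and 4 it was 0.78, 1.29 and 0.55 for SLC25A4 in controls and 1.09, 0.52 and 0.98 with cortisol. For SLC25A6 it was 1.14, 1.14 and 0.53 in controls and 1.25, 0.55 and 0.84 with cortisol. All of these were above 0, and 0 passed limma's test within 1 slide, where each group has at most 2 arrays.

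Cortisol made no difference past the threshold for any carrier at either age. At 130 d the difference between cortisol and control was -0.03 ± 0.15 SE for SLC25A4 (95% confidence interval -0.34 to 0.28), 0.01 ± 0.16 SE for SLC25A5 (-0.32 to 0.34) and -0.05 ± 0.15 SE for SLC25A6 (-0.35 to 0.26). At 140 d it was -0.07 ± 0.13 SE for SLC25A4 (-0.34 to 0.21), -0.20 ± 0.14 SE for SLC25A5 (-0.50 to 0.09) and -0.12 ± 0.13 SE for SLC25A6 (-0.39 to 0.15). The smallest limma adjusted p was 0.808, for SLC25A5 at 140 d. Limma called 0 of 12778 probes at 130 d and 0 at 140 d (0%), with 455 and 727 at an unadjusted p under 0.05. In linear terms the intervals of SLC25A4 run from 0.79 to 1.21-fold at 130 d and from 0.79 to 1.16-fold at 140 d. The smallest limma adjusted p over all probes was 0.598 at 130 d and 0.488 at 140 d.

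The cortisol effect did not differ between the ages past the threshold for any carrier, with 0 of 12778 probes called (0%) and 743 at an unadjusted p under 0.05 by limma. The difference of the effects, which is also the difference of the age changes between the arms, was -0.03 ± 0.20 SE for SLC25A4 (-0.45 to 0.38) and -0.22 ± 0.21 SE for SLC25A5 (-0.66 to 0.22). For SLC25A6 it was -0.07 ± 0.20 SE (-0.48 to 0.34). The smallest of the 3 limma adjusted p values was 0.974.

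**Figure D3:**
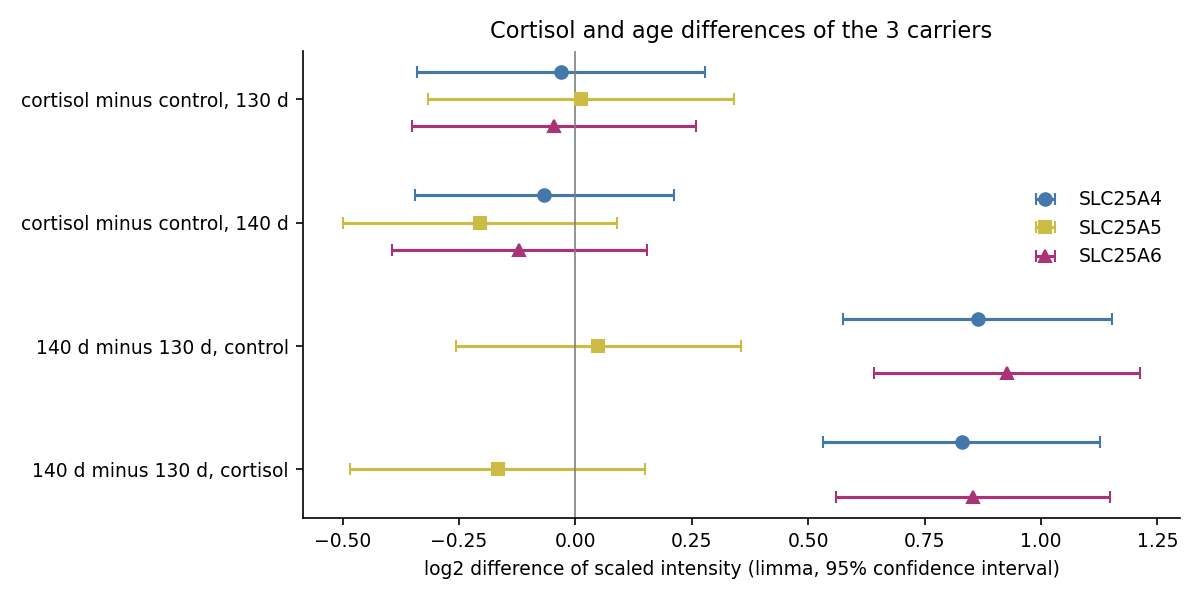
Log2 differences of scaled level with 95% confidence intervals from limma for the 3 carriers in the 4 comparisons of groups. Cortisol intervals all include 0, and the age intervals of SLC25A4 and SLC25A6 lie between 0.53 and 1.21 while those of SLC25A5 include 0.

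The isoforms were then compared within each array, where the scaling by 1 constant per array cancels. For each pair the log2 intensity of 1 probe was subtracted from the other, and group means of this difference were compared by exact two-sided permutation tests, 12 in all for 3 pairs. Only the change of such a difference can be read, since its absolute size depends on the probes. It shows unequal change and not which isoform changed.

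SLC25A4 gained on SLC25A5 with age. In controls the difference went from 6.29 to 7.10, a change of 0.81 ± 0.22 SE (exact permutation p = 0.00266, adjusted p = 0.00799), and the groups overlapped because control 130 d replicate 2 lay among the older fetuses. With cortisol it went from 6.24 to 7.24, a change of 1.00 ± 0.18 SE without overlap (exact permutation p = 0.000583, the smallest these groups can give, adjusted p = 0.00266). The change in controls was 0.55 and did not pass after quantile normalization (exact permutation adjusted p = 0.0529). Within slides 2, 3 and 4 it was 0.29, 1.18 and 0.89 in controls and 1.1, 0.77 and 0.99 with cortisol.

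SLC25A6 gained on SLC25A5 by a similar amount. The change was 0.88 ± 0.18 SE in controls, from 3.05 to 3.93 (exact permutation p = 0.000666, adjusted p = 0.00266), with overlap. It was 1.02 ± 0.17 SE with cortisol, from 2.99 to 4.01 (exact permutation p = 0.000583, the smallest possible, adjusted p = 0.00266), without overlap. Within slides 2, 3 and 4 it was 0.66, 1.04 and 0.87 in controls and 1.27, 0.80 and 0.86 with cortisol. Both contrasts use the same SLC25A5 values, so these results are not independent of those for SLC25A4.

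The difference between SLC25A4 and SLC25A6 did not change past the threshold. It changed with age by -0.06 ± 0.07 SE in controls and -0.02 ± 0.06 SE with cortisol (exact permutation adjusted p = 0.637 and 0.868). Within slides 2, 3 and 4 it was -0.37, 0.14 and 0.02 in controls and -0.17, -0.04 and 0.14 with cortisol. After quantile normalization it was -0.20 in controls (exact permutation adjusted p = 0.0631) and -0.12 with cortisol (exact permutation adjusted p = 0.388). None of the 6 cortisol comparisons of the pairs passed either, with changes between -0.06 and 0.14 and exact permutation adjusted p values of 0.615 or more. In all, 4 of the 12 comparisons passed, and they are the age changes against SLC25A5.

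**Figure D4:**
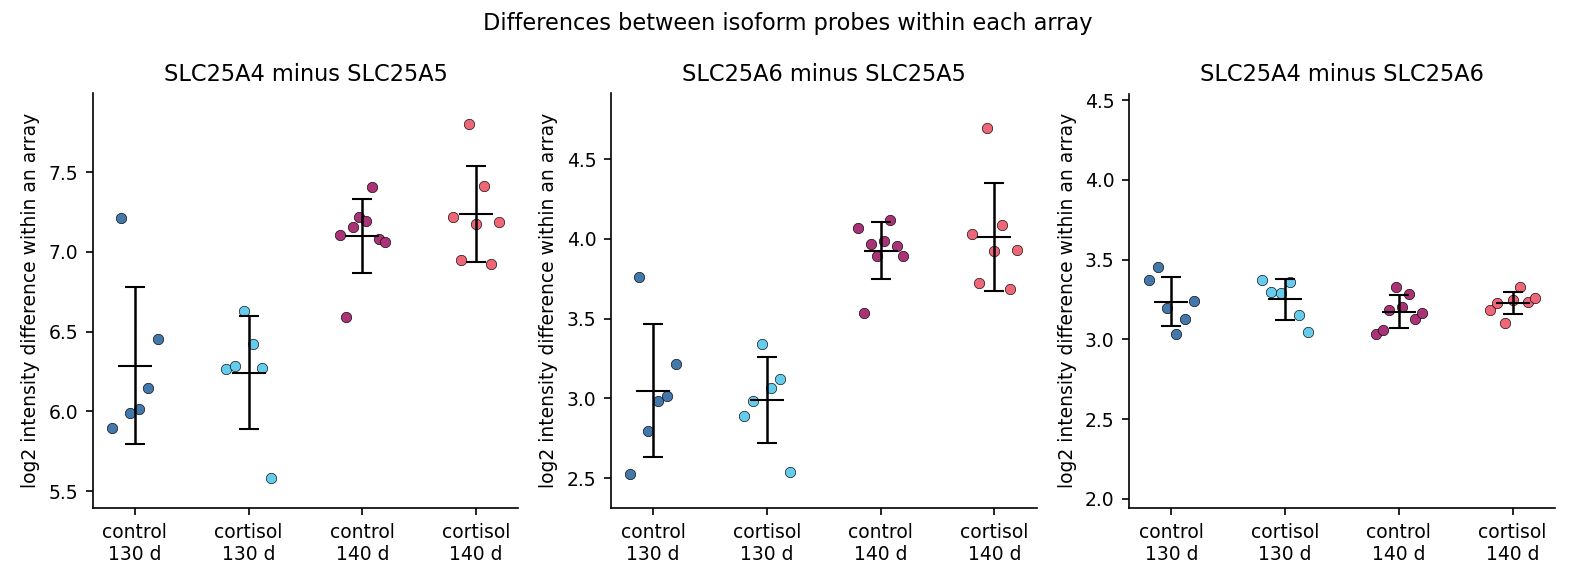
Difference of log2 intensity between isoform probes on the same array, by group, for SLC25A4 minus SLC25A5, SLC25A6 minus SLC25A5 and SLC25A4 minus SLC25A6. Points are single fetuses and bars are mean ± SD. Both differences against SLC25A5 are higher at 140 d, with control 130 d replicate 2 among the older fetuses, and SLC25A4 minus SLC25A6 stays between 3.17 and 3.25 on average.

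Fetuses with more SLC25A4 tended to have more SLC25A6 inside their groups, which did not pass with cortisol at 130 d. Pearson's r was 0.936 in controls at 130 d, 0.685 with cortisol at 130 d, 0.903 in controls at 140 d and 0.973 with cortisol at 140 d (6, 6, 8 and 7 fetuses). Adjusted over the 12 correlations computed, the exact permutation p was 0.0444, 0.397, 0.0228 and 0.0119. Spearman's rho was 0.829, 0.6, 0.786 and 0.964, with exact permutation adjusted p of 0.175, 0.483, 0.112 and 0.0333, so that only the last passed on ranks. Without the 2 fetuses farthest from the median of SLC25A4, r was 0.954, 0.873, 0.735 and 0.882. The values of an array share its scaling, and binding of the SLC25A4 transcript to the SLC25A6 probe was not tested.

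SLC25A5 did not pass with either of the others in any group. Its r with SLC25A4 was -0.101, -0.459, 0.501 and 0.522 in the same order of groups. Its r with SLC25A6 was -0.0719, 0.226, 0.747 and 0.428, and the smallest exact permutation adjusted p of these was 0.0872.

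**Figure D5:**
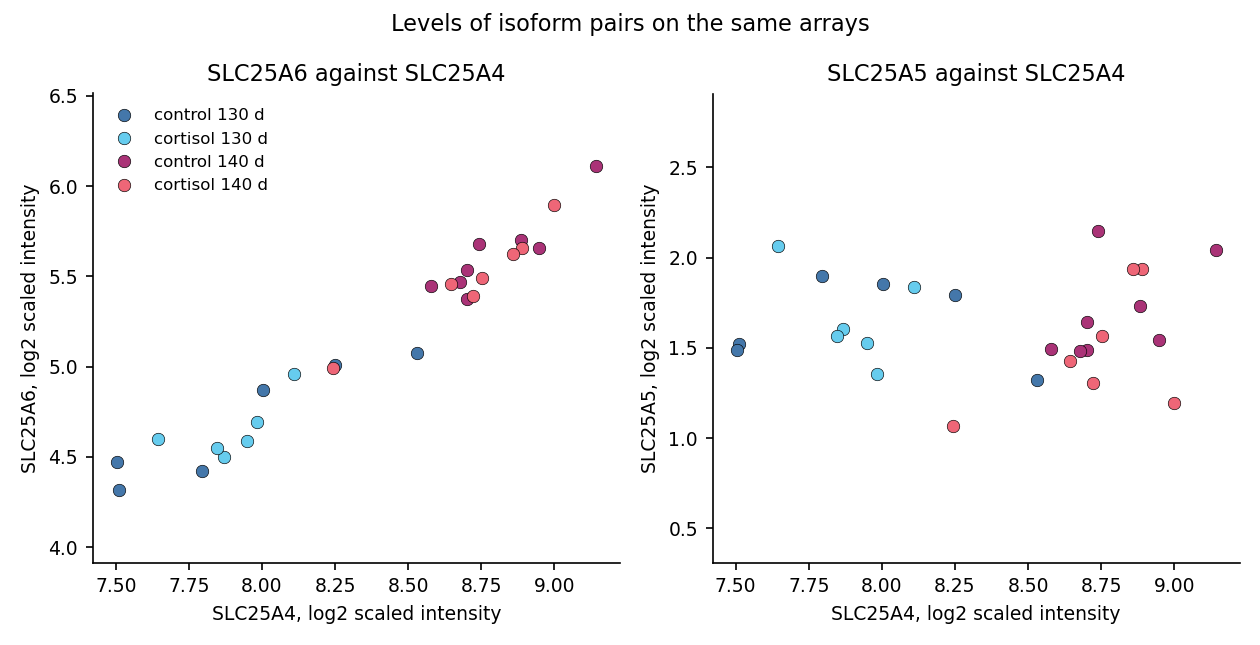
Scaled log2 level of SLC25A6 (left) and SLC25A5 (right) against SLC25A4, 1 point per fetus, coloured by group. SLC25A6 rises with SLC25A4 both between and inside groups, and SLC25A5 shows no common slope.

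Over all 27 arrays SLC25A6 was the gene most like SLC25A4 of 741 other named genes and the other members, with r = 0.976, and r = 0.902 after the group means were removed. Next to SLC25A4 came ATP5MC1, a subunit of the membrane rotor of ATP synthase (r = 0.917, 0.765 after removal), then ENDOG, a mitochondrial nuclease (0.902, 0.691), and the insulin-responsive glucose transporter GLUT4 (0.892, 0.565). For SLC25A6 they were ATP5MC1 (0.923, 0.771), ENDOG (0.911, 0.7) and TPM1 (0.905, 0.599). After removal of the group means other genes came between. ATP5MC1 then ranked 2, ENDOG 8 and GLUT4 33 for SLC25A4, and ATP5MC1 ranked 3, ENDOG 8 and TPM1 26 for SLC25A6. The genes most like SLC25A5 were other ones: NARS, asparaginyl-tRNA synthetase (0.732, 0.731), POLR2G, an RNA polymerase II subunit (0.628, 0.67), and SLC39A3, a zinc transporter (0.614, 0.607). SLC25A5 itself had r = 0.0138 with SLC25A4 and 0.098 with SLC25A6. The 27 points share 4 group means, so these values describe the arrays and carry no test.

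Genes around ATP synthesis, transport and use, here called the ATP export list, were read from a list of 42, of which 9 had a tested named probe. From 130 d to 140 d in controls 5 of the 9 rose and 0 fell, where 9.77% of all probes rose and 9.35% fell. The median difference was 0.47, against -0.01 over all probes. ATP synthase makes the ATP that the carriers export, and its subunits ATP5PD (0.71 ± 0.11 SE), ATP5MC1 (0.69 ± 0.15) and ATP5PO (0.54 ± 0.13) rose, with limma adjusted p values of 0.000293, 0.00239 and 0.00595. A second ATP5MC1 probe was at 0.75. CKB, the brain-type creatine kinase that passes the phosphate of ATP to creatine, rose by 0.82 ± 0.27 SE (limma adjusted p = 0.0381). HK1, a hexokinase that binds the outer mitochondrial membrane, rose by 0.47 ± 0.13 SE (limma adjusted p = 0.0120). VDAC1, the outer membrane channel for ATP and ADP, was at 0.36 ± 0.17 SE and the ATP synthase subunit ATP5MC2 at 0.23 ± 0.10, and neither passed (limma adjusted p = 0.131 and 0.0897). TSPO, an outer membrane protein, was at 0.05 ± 0.12 SE and SLC25A17, the peroxisomal carrier of adenine nucleotides, at -0.05 ± 0.11 SE, and they did not pass.

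With cortisol 2 of the 9 rose between the ages and 0 fell, where 4.94% of all probes rose and 8.52% fell. The median was 0.25 against -0.04 over all probes. They were ATP5MC1 (0.73 ± 0.15 SE, limma adjusted p = 0.00255) and ATP5PD (0.40 ± 0.12 SE, limma adjusted p = 0.0243). The second ATP5MC1 probe was lower than the first, at 0.46 ± 0.12 SE (limma adjusted p = 0.00945). CKB was at 0.55 ± 0.28 SE, ATP5PO at 0.34 ± 0.13, HK1 at 0.25 ± 0.13 and VDAC1 at 0.23 ± 0.17, and these did not pass. Cortisol against control gave 0 of 9 at each age, with medians of 0.03 at 130 d and -0.15 at 140 d, beside 0.01 and -0.04 over all probes. After normexp background correction 2 of the 9 were called in controls and 1 with cortisol, beside 4.19% and 2.65% of all probes.

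The calls of this list did not hold under the scalings chosen after the data were seen. Without scaling between arrays 0 of the 9 rose with age in either arm, 2 fell in controls and 1 fell with cortisol, where 56.3% and 36.9% of all probes fell. The medians of the list were 0.0069 and -0.077. With spike-in scaling 0 rose, 3 fell in controls and 7 fell with cortisol, where 76.5% and 87.5% of all probes fell. The list medians were -0.25 and -0.61, beside medians of -0.73 and -0.90 over all probes.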

How the data were processed

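RNA of the septum (500 ng per fetus) was labelled with Cy3 and hybridised to 1-colour arrays, per the labels. Per the file headers, the intensity of each spot in the deposited scanner files had background subtracted and spatial trends removed, with no normalization across arrays. The submitters' processing notes name Agilent Feature Extraction 10.1.1.1. The authors' deposited value table holds log2 values that differ from the log2 scanner intensity by a single constant for each array (residual SD at most 2e-06, column medians from 0.09 to 0.12), and the basis of that constant is not stated.

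Scaled levels were log2 ratios of processed intensity to the 75th percentile of the same array. Spots with outlier flags were left out, and 50 probes spotted 5 times were averaged. Of 15208 spots and 15008 probes, the 12778 flagged well above background on 6 or more arrays entered 1 fit of 4 groups with lmFit and eBayes (limma 3.58.1, R 4.3.3), 2-sided, with Benjamini-Hochberg adjustment over all of them and a threshold of 0.05. Isoform differences used exact permutation tests. The fit was tested on simulated data. Genes outside the 3 carriers are named by rule: all measured genes of the ATP export list, markers, and the 3 genes with the highest Pearson correlation with each carrier. The members and lists were chosen with earlier results of these data known. Each array is 1 fetus, but 2 control fetuses at 140 d share a ewe. P values set the differences against the spread between these samples, with each fetus taken as independent, and the number of arrays limits precision. Alternatives were other background corrections, normalizations, filters, slide and replicate terms, and leaving out arrays. Scaling to spike-in spots (6 of 10 spike-in probes) and no scaling were added after the data were seen.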

Additional observations from a re-analysis of the deposited data

Results flagged for a closer look

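Of 24 groups of values examined, 3 carriers and 3 isoform differences in 4 groups, 5 had 1 fetus far from the rest of its group, where chance gives about 1 in 20 groups. SLC25A6 in control 140 d replicate 1 had a scaled level of 6.11, with the next fetus at 5.70. The difference SLC25A4 minus SLC25A5 was 5.58 in cortisol 130 d replicate 6, with the nearest fetus at 6.26, and 6.59 in control 140 d replicate 2, with the nearest at 7.06. The difference SLC25A6 minus SLC25A5 was 3.53 in control 140 d replicate 2, with the nearest at 3.89, and 4.70 in cortisol 140 d replicate 3, with the nearest at 4.09. The differences against SLC25A5 share its values, so the entries for control 140 d replicate 2 are not separate. The age changes of SLC25A4, SLC25A6 and both differences against SLC25A5 kept their calls when each of these fetuses was left out in turn.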

How the results depend on the processing

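Of 102 alternatives to a main count above 0, 88 stayed within 1.5 times that count, and where the main count was 0 it was 0 in all 116. The 102 include fits that leave out 1 array (27 for the isoform differences, 14 and 13 for the age calls), which share nearly all arrays. The 116 are for cortisol comparisons, where at most 2 probes of the whole array were called in any setting. A count of 0 there says little about the carriers. The 2 carriers called with age in each arm became 1 with spike-in scaling, where the called one is SLC25A5, and 0 within each of slides 2, 3 and 4, which hold few arrays. The ATP export list had 2 calls in controls and 1 with cortisol under normexp and without scaling (lower in the latter), and 3 and 7, all lower, with spike-in scaling. Over all probes the age calls, 2443 in controls and 1720 with cortisol, were 536 and 339 with normexp, 7273 and 4851 without scaling and 9799 and 11209 with spike-in scaling. The share of calls that were higher, 51.1% and 36.7%, was 70.6% and 63.7% with a median shift, 71.3% and 64.1% in the authors' deposited table, 1.11% and 2.78% without scaling and 0.296% and 0.223% with spike-in scaling. With normexp the share was 60.8% in controls and 52.2% with cortisol. The replicate numbers of the titles were not taken as pairs, and they partly follow the slides. Correlations of deviations between arrays of 1 number ran from -0.157 to 0.397, with means by number from 0.052 to 0.239. Between different numbers they ran from -0.406 to 0.397, with a mean of -0.0142. With a replicate block the age calls were 2494 and 1789, and the carriers called stayed at 2, 2, 0, 0 and 0. The alternative that averages several probes of a gene had no effect to give, since each carrier has 1 probe. Signal was well above background for every carrier value. The cause of the changes below was not tested.

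Some age differences whose direction changed had passed in the same arm. They were SLC25A4 and SLC25A6 with cortisol, ATP5MC1 and ATP5PD in both arms, and ATP5PO and HK1 in controls. CKB had passed only in controls, and its direction changed only with cortisol. With spike-in scaling the age change with cortisol was -0.029 for SLC25A4 and -0.0049 for SLC25A6, and SLC25A5 in controls was -0.67. The cortisol values include 140 d replicate 4, at 7.39 for SLC25A4 and 4.14 for SLC25A6 on that scale. The medians of its group were 9.05 and 5.79, and the changes without it were not computed there. Without scaling SLC25A5 was -0.42 in controls and -0.071 for cortisol at 130 d, and the difference of the cortisol effects was 0.11 for SLC25A4 and 0.070 for SLC25A6. With spike-in scaling the list's age changes in controls were -0.035 for ATP5MC1, -0.50 for ATP5MC2, -0.017 for ATP5PD, -0.18 for ATP5PO, -0.25 for HK1, -0.68 for TSPO and -0.36 for VDAC1. With cortisol they were -0.13 for ATP5MC1, -0.77 for ATP5MC2, -0.46 for ATP5PD, -0.52 for ATP5PO, -0.31 for CKB, -0.61 for HK1 and -0.63 for VDAC1. Without scaling they were -0.24 for ATP5MC2, -0.42 for TSPO and -0.11 for VDAC1 in controls, and -0.24 for ATP5MC2, -0.077 for HK1 and -0.090 for VDAC1 with cortisol. With quantile normalization SLC25A4 was 0.0095 for cortisol at 130 d and 0.0062 at 140 d. With normexp SLC25A5 was -0.10 for cortisol at 130 d, SLC25A4 minus SLC25A6 was -0.020 and -0.014 for cortisol at 130 d and 140 d, and the age changes in controls were -0.016 for TSPO and 0.19 for SLC25A17. With a median shift SLC25A17 was 0.044 in controls and 0.071 with cortisol. For cortisol at 130 d SLC25A5 was -0.024 in slide 2 and -0.066 in slide 3, SLC25A4 was 0.46 in slide 3 and SLC25A6 0.25 in slide 3. For cortisol at 140 d SLC25A4 was 0.0031 in slide 2 and 0.18 in slide 4, SLC25A5 0.45 in slide 4 and SLC25A6 0.15 in slide 4. In slide 4 SLC25A5 was -0.34 with age in controls. The difference of the cortisol effects was 0.31 for SLC25A4 and 0.11 for SLC25A6 in slide 2, and 0.43, 0.33 and 0.31 for SLC25A4, SLC25A5 and SLC25A6 in slide 4.

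With 1 array left out, both carriers kept their age calls in all 14 fits of controls and 13 with cortisol, and 4 isoform differences passed in all 27. Cortisol at 130 d ranged from -0.12 to 0.088 for SLC25A4, -0.069 to 0.073 for SLC25A5, -0.12 to 0.030 for SLC25A6, -0.12 to 0.14 for SLC25A4 minus SLC25A5, -0.16 to 0.084 for SLC25A6 minus SLC25A5 and -0.026 to 0.058 for SLC25A4 minus SLC25A6. Cortisol at 140 d ranged from -0.11 to 0.015 for SLC25A4 and -0.030 to 0.14 for SLC25A6 minus SLC25A5. The age change of SLC25A5 in controls ranged from -0.016 to 0.10, and the difference of the cortisol effects from -0.15 to 0.051 for SLC25A4 and -0.15 to 0.011 for SLC25A6.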
